A study of Mus musculus with 20 samples.

Results

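Trimethylation of lysine 4 of histone H3 (H3K4me3) was compared between Lin- bone marrow cells of WT and *Tet2*-/- mice (genotype labels WT and Tet2 Knockout), each represented by 1 ChIP-Seq library. The 26289 WT peaks and 27807 *Tet2*-/- peaks were merged into 29036 regions. Merging the H3K4me3 peaks of all 4 genotypes of the series gives 30095 regions. A region with a WT peak and no overlapping *Tet2*-/- peak (at least 1 bp) was called lost, a region with a *Tet2*-/- peak and no overlapping WT peak was called gained, and the others were called retained. There were 2838 lost, 3569 gained, and 22629 retained regions. The series holds 20 samples from WT, p300 Knockout, Tet2 Knockout, and p300 Tet2 Knockout mice, and the question addressed here is where the H3K4me3 calls differ when *Tet2* is absent and *Ep300* is intact. Lin- cells are what is left of the marrow after cells carrying surface markers of mature blood lineages are depleted, a mixture rich in stem and progenitor cells. By the methods of the study, the WT mice were *Ep300* fl/fl and the *Tet2*-/- mice were *Ep300* fl/fl;*Tet2*-/-, neither carried *Mx1-Cre*, and mice of both genotypes were injected with poly(I:C), an inducer of interferon. Without Cre the floxed *Ep300* alleles were left undeleted in both groups. The p300 Knockout and p300 Tet2 Knockout mice, used below as a second pair of genotypes, carried *Mx1-Cre*, which poly(I:C) turns on in blood and other tissues. Their mouse numbers, pooling, and sex are not given in the labels. Per the labels, each precipitation used 5 µg of chromatin, 1 µg of antibody, and 10 ng of spiked-in *Drosophila* chromatin. Because each genotype and mark has 1 library, variation among mice was not measured, no test was made, and the depth is unknown from peak lists. The intervals printed after shares are 95% limits by the exact Clopper-Pearson method and hold counting error alone.

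H3K4me3 is placed by the SET1 and MLL methyltransferase complexes, marks the starts of genes that are transcribed or poised, and is densest at CpG islands, stretches of DNA rich in unmethylated CpG dinucleotides. TET2 oxidizes 5-methylcytosine and so favors DNA demethylation. *TET2* is among the genes most often mutated in clonal hematopoiesis and myeloid neoplasms, where its loss expands stem cells and skews differentiation. In a mixture of progenitors, an H3K4me3 call at a lineage gene reflects both how many cells use that gene and how strongly the mark is laid there. In bulk samples fewer cells of a type and less of the mark per cell cannot be told apart.

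Sequences of 3 lost and 3 gained regions, from the 10 with the highest fold enrichment in each class, are given first because CpG content differed between these classes and the retained regions. Regions whose summit sequence overlaps an annotated exon were passed over, and the strongest gained region is only named further on. Each sequence is the peak summit with 100 bp on either side in GRCm38 (mm10), named by the gene with the nearest start, with CpG dinucleotides in capitals. The lost regions follow.
Ylpm1, chr12:85003545-85003745, plus strand: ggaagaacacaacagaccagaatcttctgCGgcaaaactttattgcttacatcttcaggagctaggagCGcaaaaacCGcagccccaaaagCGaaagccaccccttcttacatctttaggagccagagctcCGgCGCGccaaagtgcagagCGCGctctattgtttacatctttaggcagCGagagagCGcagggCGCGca
2610035D17Rik, chr11:113172737-113172937, plus strand: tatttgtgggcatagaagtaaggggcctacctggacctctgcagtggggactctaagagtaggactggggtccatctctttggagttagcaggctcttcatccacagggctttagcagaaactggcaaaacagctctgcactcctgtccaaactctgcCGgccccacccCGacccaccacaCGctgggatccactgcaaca
Gm28694, chr1:157067173-157067373, plus strand: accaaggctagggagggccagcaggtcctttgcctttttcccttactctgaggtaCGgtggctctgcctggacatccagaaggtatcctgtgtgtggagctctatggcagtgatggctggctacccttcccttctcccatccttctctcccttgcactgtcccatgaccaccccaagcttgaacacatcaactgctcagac
The gained regions follow.
Foxp1, chr6:99094699-99094899, plus strand: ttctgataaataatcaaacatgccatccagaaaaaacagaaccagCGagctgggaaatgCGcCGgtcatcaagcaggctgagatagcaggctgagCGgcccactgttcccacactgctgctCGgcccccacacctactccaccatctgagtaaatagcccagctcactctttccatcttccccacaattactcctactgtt
Snd1, chr6:28929362-28929562, plus strand: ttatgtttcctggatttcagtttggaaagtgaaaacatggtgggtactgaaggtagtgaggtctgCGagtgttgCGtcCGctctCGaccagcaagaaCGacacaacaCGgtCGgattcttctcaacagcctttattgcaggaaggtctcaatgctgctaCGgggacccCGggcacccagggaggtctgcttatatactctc
AC091332.1, chr17:79231086-79231286, plus strand: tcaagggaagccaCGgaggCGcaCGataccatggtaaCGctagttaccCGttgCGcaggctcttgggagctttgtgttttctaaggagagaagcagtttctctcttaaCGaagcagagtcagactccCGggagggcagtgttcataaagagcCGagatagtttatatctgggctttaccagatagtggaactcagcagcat
The lost *Ylpm1* site held 13 CpG dinucleotides, the lost *2610035D17Rik* site 3, and the lost *Gm28694* site 1, and the gained sites held 5, 9, and 9. These sites are examples from the strongest regions and do not stand for their class, and no retained sequence is shown. For the lineage genes described below, the 250 bases before the RefSeq start (GRCm38.p6) are shown for a pair of B-lymphoid genes whose H3K4me3 call was lost, *Igll1* and *Rag2*, and a pair of mast cell and basophil genes whose call was gained, *Cpa3* and *Fcer1a*. These 4 were chosen after their values were seen.
Igll1, chr16:16863986-16864235, minus strand: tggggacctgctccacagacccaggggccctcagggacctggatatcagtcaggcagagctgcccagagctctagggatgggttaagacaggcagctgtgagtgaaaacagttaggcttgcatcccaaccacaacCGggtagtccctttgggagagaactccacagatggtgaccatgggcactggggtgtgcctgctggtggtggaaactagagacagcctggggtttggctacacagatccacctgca
Rag2, chr2:101624462-101624711, plus strand: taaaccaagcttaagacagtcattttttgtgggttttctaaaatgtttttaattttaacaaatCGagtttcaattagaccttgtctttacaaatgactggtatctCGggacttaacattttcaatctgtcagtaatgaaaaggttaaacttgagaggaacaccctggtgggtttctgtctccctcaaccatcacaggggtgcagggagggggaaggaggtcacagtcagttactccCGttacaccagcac
Cpa3, chr3:20242182-20242431, minus strand: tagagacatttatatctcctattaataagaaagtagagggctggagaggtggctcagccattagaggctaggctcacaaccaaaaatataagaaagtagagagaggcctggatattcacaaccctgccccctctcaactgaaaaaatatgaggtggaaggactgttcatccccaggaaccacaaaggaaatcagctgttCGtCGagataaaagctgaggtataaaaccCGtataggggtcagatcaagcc
Fcer1a, chr1:173227230-173227479, minus strand: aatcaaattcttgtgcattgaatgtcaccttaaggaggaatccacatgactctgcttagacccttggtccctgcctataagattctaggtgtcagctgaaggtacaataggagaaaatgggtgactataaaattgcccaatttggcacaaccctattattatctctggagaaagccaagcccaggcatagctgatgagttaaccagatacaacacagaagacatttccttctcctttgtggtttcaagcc
These 4 sequences held 1 CpG dinucleotide in *Igll1*, 3 in *Rag2*, 3 in *Cpa3*, and 0 in *Fcer1a*, but they do not stand for all such genes, and the same bases of *Ebf1*, another B-lymphoid gene whose call was lost, held 14. The motif of GATA factors, searched as the letters AGATAA on either strand, occurred in the *Cpa3* and *Fcer1a* sequences and in 10.3% of the 27025 promoters of the table. The motif of RUNX factors, searched as TGTGGTT on either strand, occurred in the *Igll1*, *Cpa3*, and *Fcer1a* sequences and in 4.46% of all promoters. A match describes letters in this window and is not a measured binding site. The *Rag2* and *Fcer1a* peaks overlapped the start, while the *Igll1* and *Cpa3* peaks lay inside the gene, downstream of the bases shown.

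Across all regions, the window of 100 bp on either side of the summit held a median of 4 CpG dinucleotides in lost, 4 in gained, and 10 in retained regions. The ratio of observed to expected CpG had a median of 0.319 in lost and 0.322 in gained regions, against 0.601 in retained regions. Most retained regions contain a transcript start, so the classes were also compared at the same position. Among regions that contain a start, the median count was 7 in lost, 7 in gained, and 13 in retained regions, and a ratio above 0.6 was found in 35.6% of the lost (30.3% to 41.3%), 35.2% of the gained (30.4% to 40.3%), and 66.3% of the retained regions (65.5% to 67.1%). Among regions more than 3000 bp from a start, a ratio above 0.6 was found in 11% of the lost (9.34% to 12.9%), 10.4% of the gained (8.98% to 11.9%), and 20.0% of the retained regions (18.8% to 21.1%). Lost and gained regions were alike in CpG content at both positions, with overlapping intervals, and both lay below retained regions.

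Among regions more than 3000 bp from a start, the GATA letters AGATAA were found in 7.14% of the lost (5.76% to 8.72%), 9.28% of the gained (7.94% to 10.7%), and 7.24% of the retained regions (6.51% to 8.02%). The RUNX letters TGTGGTT were found there in 5.84% (4.60% to 7.30%), 7.41% (6.21% to 8.75%), and 4.86% (4.26% to 5.52%). GATA factors direct erythroid, mast cell, and megakaryocyte genes, and RUNX1 is a regulator of blood stem cells. For RUNX the interval of gained regions lay above that of retained regions, and for GATA these intervals overlapped. The ETS letters CCGGAAGT were found in 0.973%, 0.642%, and 0.778% of lost, gained, and retained regions at this distance, the C/EBP letters TTGCNNCAA in 1.38%, 1.34%, and 1.38%, and the IRF letters GAAANNGAA in 6.97%, 8.87%, and 8.21%, all with overlapping intervals. Over all 29036 regions, the shares were 4.66% for GATA, 3.51% for RUNX, 0.847% for ETS, 1.17% for C/EBP, and 5.40% for IRF.

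Lost regions were 11.1% of the 25467 WT regions (interval, 10.8% to 11.5%) and gained regions were 13.6% of the 26198 *Tet2*-/- regions (13.2% to 14.0%). The excess of gained over lost regions depends on list length: with the same number of peaks taken from each list, 3318 regions were lost and 2660 gained. Both were weak and narrow. The fold enrichment over the H3 library, as the authors' peak caller gave it, had a median of 4.73 in lost and 22.6 in retained regions of the WT list, and of 4.62 in gained and 19.3 in retained regions of the *Tet2*-/- list. Folds were ranked only within 1 list, because the lists differ in yield. When the WT regions were divided by fold into 4 parts of equal size, 0 of the 6367 strongest were lost (which allows a share of up to 0.0579%), followed by 9, 433, and 2396 in the weaker parts, so that the weakest part held 37.6% lost regions. Among the *Tet2*-/- regions, 1 of the 6550 strongest was gained, followed by 11, 656, and 2901, and the weakest part held 44.3% gained regions. The median width was 319.5 bp for lost, 303 bp for gained, and 1096 bp for retained regions. A peak of the other genotype lay within 500 bp of 28.6% of the lost and 26.4% of the gained regions, and a retained region lay within 2000 bp of 43.9% and 37.7%.

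**Figure D1:**
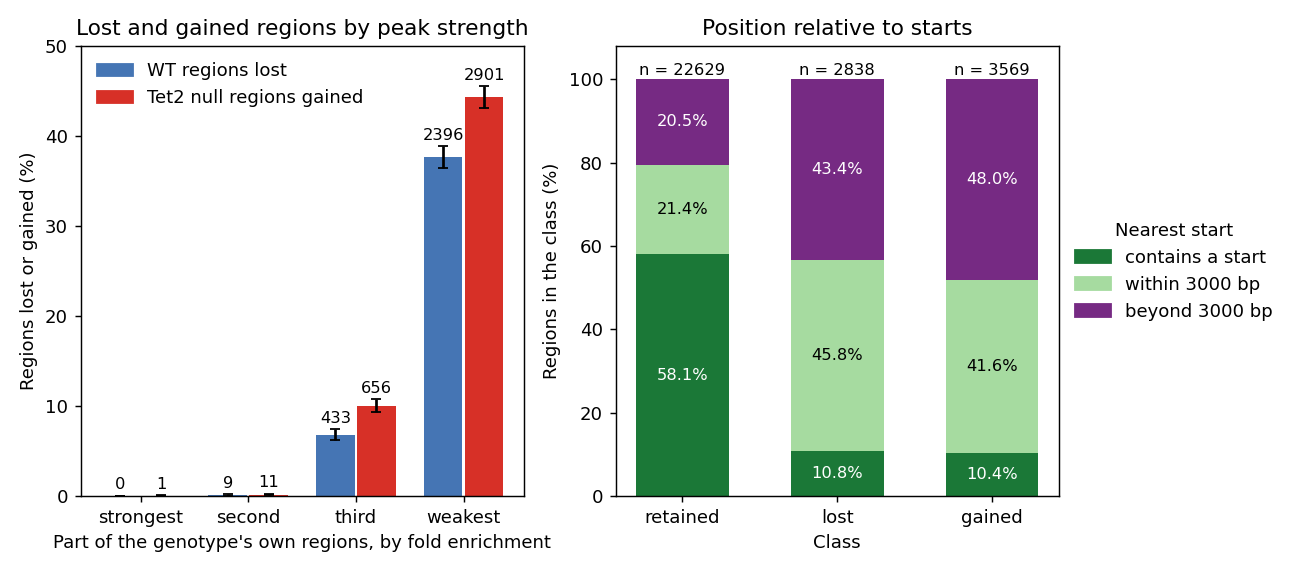
The left panel plots the share of WT regions lost (blue) and of *Tet2*-/- regions gained (red), in percent, in 4 parts of each genotype's own regions by fold enrichment, with the number of regions above each bar and exact 95% intervals as error bars. The right panel plots where the regions of each class lie relative to annotated transcript starts, and shows that 58.1% of retained but 10.8% of lost and 10.4% of gained regions contain a start.

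H3K4me3 is known as a mark of gene starts, and 58.1% of the retained regions (57.5% to 58.8%) contained an annotated transcript start. Only 306 lost regions (10.8%; 9.66% to 12%) and 372 gained regions (10.4%; 9.44% to 11.5%) did. A further 45.8% of the lost (43.9% to 47.6%), 41.6% of the gained (39.9% to 43.2%), and 21.4% of the retained regions lay outside a start but within 3000 bp of one. Regions beyond 3000 bp made up 43.4% of the lost (41.6% to 45.3%), 48.0% of the gained (46.4% to 49.7%), and 20.5% of the retained regions. The lost regions next to starts were mostly at the flank of a retained region, since 69.7% of those outside a start but within 3000 bp had a retained region within 2000 bp, as did 63.6% of the gained ones. Taken by position, 2.27% of the WT regions that contain a start were lost (2.03% to 2.54%), against 21.1% of those within 3000 bp (20.1% to 22.2%) and 21% of those beyond (20.0% to 22.1%). Gained regions were 2.75%, 23.4%, and 27% of the *Tet2*-/- regions at these positions. A wider region is more likely to contain a start or to overlap a peak of another mark. Retained regions were wider (median, 1096 bp, against 319.5 bp lost and 303 bp gained), and the shares here and below were not adjusted for width.

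The starts in lost and gained regions belonged less often to protein-coding genes. Of the 306 lost regions that contain a start, 246 held a protein-coding start (80.4%; 75.5% to 84.7%), 45 a start of a long noncoding RNA (14.7%; 10.9% to 19.2%), 7 of a pseudogene, 7 of a small RNA, and 1 of a TEC gene, a class of unclear coding potential. Of the 372 gained ones, 282 held a protein-coding start (75.8%; 71.1% to 80.1%), 63 a long noncoding RNA (16.9%; 13.3% to 21.1%), 14 a pseudogene, 6 a small RNA, 5 a TEC gene, and 2 an immune receptor segment. Protein-coding starts made up 93.6% (93.2% to 94.0%) and long noncoding RNA starts 4.64% (4.29% to 5.02%) of the 13155 retained regions with a start. Of the WT regions at long noncoding RNA starts, 6.86% were lost (5.05% to 9.07%), compared with 1.96% (1.72% to 2.22%) at protein-coding starts. Of the *Tet2*-/- regions, 9.35% at long noncoding RNA starts (7.26% to 11.8%) and 2.24% at protein-coding starts (1.99% to 2.51%) were gained.

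H3K27ac, the acetylation of active promoters and enhancers, was called from separate libraries of the same genotypes. Per the study's methods, H3 served as background for the histone marks, and the series has 1 H3 library per genotype. Calls of different marks in a genotype thus share that background, and its effect was not tested. Of the lost regions, 25.8% (24.2% to 27.5%) carried an H3K27ac peak in WT and 12.6% (11.4% to 13.9%) in *Tet2*-/- cells. Of the gained regions, 19.5% (18.2% to 20.9%) carried one in WT and 18.6% (17.3% to 19.9%) in *Tet2*-/- cells. The retained regions stood at 59.1% and 57.1%. H3K27ac was thus called less often in *Tet2*-/- cells at regions that lost H3K4me3, but at regions that gained H3K4me3 it was called about equally in both genotypes, with overlapping intervals. Among the regions acetylated in exactly 1 genotype, that genotype was WT for 438 of 502 lost regions (87.3%; 84.0% to 90.0%), 229 of 425 gained regions (53.9%; 49.0% to 58.7%), and 1473 of 2498 retained regions (59.0%; 57% to 60.9%). The WT H3K27ac list is the longer one, with 29659 peaks against 24539, and the retained share gives the value to set the other shares beside.

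The difference at lost regions was present at all positions. H3K27ac in WT and *Tet2*-/- cells was called at 17.0% and 7.52% of the lost regions that contain a start, 17.5% and 8.55% of those within 3000 bp, and 36.8% and 18.2% of those beyond. For gained regions the pairs were 10.2% and 9.41%, 11.7% and 11.1%, and 28.4% and 27.1%. Lost and gained regions far from starts thus carried acetylation more often than those near starts. H3K4me1, which flanks promoters and marks enhancers, moved in both directions. It was called at 74.7% (73.1% to 76.3%) of the lost regions in WT and 64.0% (62.2% to 65.8%) in *Tet2*-/- cells, and at 63.8% (62.2% to 65.4%) of the gained regions in WT and 74.1% (72.6% to 75.5%) in *Tet2*-/- cells. At retained regions the shares were 77.1% and 75.1%. Among regions with H3K4me1 in exactly 1 genotype, that genotype was WT for 77.1% of the lost (73.4% to 80.6%), 22.2% of the gained (19.1% to 25.6%), and 56.8% of the retained regions (55.1% to 58.5%).

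**Figure D2:**
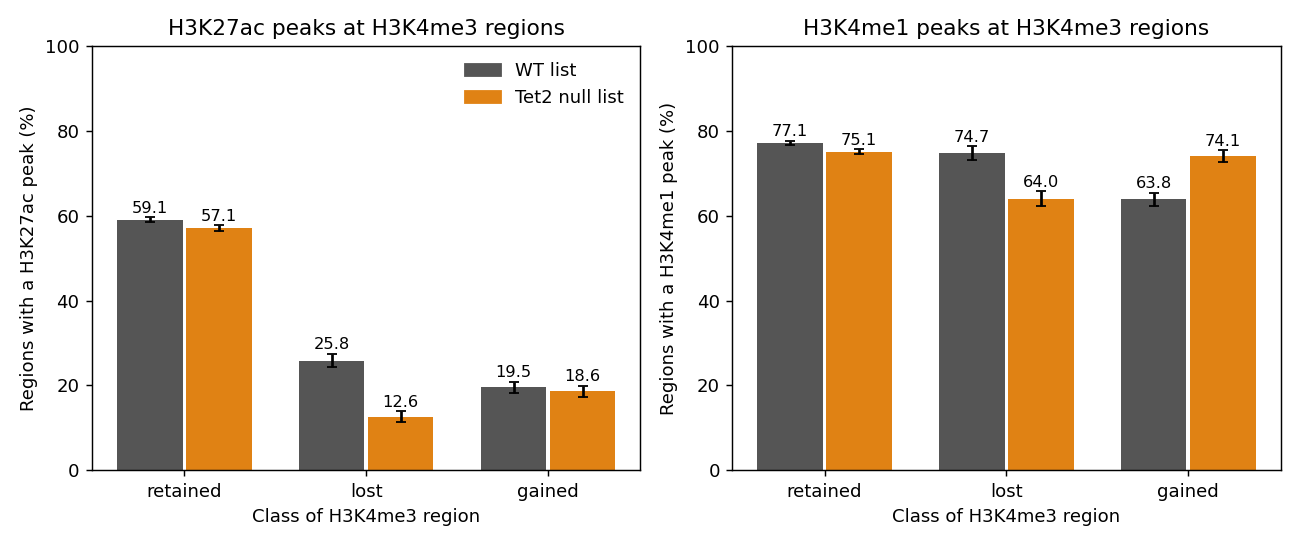
The panels plot the share of retained, lost, and gained H3K4me3 regions, in percent, that overlap an H3K27ac peak (left) or an H3K4me1 peak (right) of the WT (gray) or *Tet2*-/- (orange) list, with exact 95% intervals as error bars. Both marks were called less often in *Tet2*-/- cells at lost regions, while at gained regions H3K4me1 rose from 63.8% to 74.1% and H3K27ac stood at 19.5% and 18.6%.

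The 10 lost regions with the highest WT fold lay at least 2152 bp from the nearest *Tet2*-/- peak (*Hbq1b*), and the other 9 at least 5638 bp. The strongest lay in an intron of *Ylpm1*, at chr12:85003199-85003823, with a WT fold of 30.2 and a −log10 *q* of 93.7. The next contained the start of the long noncoding RNA *2610035D17Rik* (chr11:113172312-113173082; WT fold, 27.1; −log10 *q*, 198), and the nearest *Tet2*-/- peak was 28222 bp away. The third lay between genes near the long noncoding RNA *Gm28694* (chr1:157066640-157067533; WT fold, 26.1). All 3 overlapped an H3K27ac peak in WT and none in *Tet2*-/- cells. The others in order were at *Arrb1*, *Sox5*, *Mphosph9*, *Ect2l*, *Osbp*, *Hbq1b*, and *Apol8*, with WT folds from 20.1 to 16.8. Of the 10, 6 carried H3K27ac in WT and 0 in *Tet2*-/- cells. The other genotypes did not all follow: 9 of the 10 had an H3K4me3 peak in p300 Knockout and 5 in p300 Tet2 Knockout cells, *2610035D17Rik* and *Arrb1* among the latter.

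Any annotated transcript start of a gene counted here, so a gene can be listed while another of its starts stayed marked. Among lost regions that contain a protein-coding start, *Arrb1*, which encodes β-arrestin 1, ranked first (chr7:99594516-99596654; WT fold, 20.1), with H3K27ac in WT and none in *Tet2*-/- cells. The next were *Hbq1b*, a theta globin gene of the α-globin cluster (WT fold, 17.2), *Apol8*, of the apolipoprotein L family (16.8), and *Car1*, the erythroid carbonic anhydrase (15.1). *Hbq1b* has a near-identical neighbor copy, and reads of such copies may be split or dropped at mapping. After them came the starts of *Ubp1*, *Fntb*, *1300017J02Rik*, *Negr1*, *Mcmdc2*, and *Dclk2*, with WT folds from 15.1 to 12.4. Of these 10 regions, 3 had a *Tet2*-/- peak within 500 bp, so H3K4me3 was still called close by: *Fntb* (a subunit of protein farnesyltransferase, 184 bp), *1300017J02Rik* (354 bp), and *Negr1* (a neuronal adhesion molecule, 152 bp).

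The 10 gained regions with the highest *Tet2*-/- fold included the start of *Tmem267* (chr13:119487561-119488416), with a *Tet2*-/- fold of 30.6 and a −log10 *q* of 271. The nearest WT H3K4me3 peak was 23963 bp away, although a WT H3K27ac peak overlapped the region and both other genotypes had an H3K4me3 peak there. The single strongest gained region, near the long noncoding RNA *AC102496.1* on chromosome 18, had a *Tet2*-/- fold of 30.8. The start of *Pwp1* (*Tet2*-/- fold, 19.5) was likewise without a WT peak for 41864 bp and marked in both other genotypes. By contrast, gained regions at *Foxp1*, a forkhead transcription factor (19.4), *Ifi47*, an interferon-inducible GTPase (19.1), and *Kif23*, a kinesin of cell division (15.9), lay 117, 196, and 331 bp from a WT peak. *Fcer1a*, the α chain of the high-affinity IgE receptor, had a *Tet2*-/- fold of 18.5 at its start (chr1:173226631-173227295; −log10 *q*, 45.9), and the nearest WT peak was 104121 bp away. Regions near *Snd1* (18.7), *Coro2b* (18), and the pseudogene *AC091332.1* (16.5) lay 95956, 5148, and 116178 bp from a WT peak. The *Fcer1a* region was the only one of these 10 without an H3K4me3 peak in either other genotype. Of the 10, 3 carried H3K27ac in WT and 5 in *Tet2*-/- cells, 7 had an H3K4me3 peak in p300 Knockout, and 9 in p300 Tet2 Knockout cells. Among gained regions that contain a protein-coding start, *Tmem267*, *Pwp1*, *Ifi47*, and *Fcer1a* were followed by *Palld*, *Pcdhga7*, *Aspa*, *Mbnl1*, *Adam5*, and *Tekt2*, with *Tet2*-/- folds from 12.2 to 11.3. These 6 genes are known for the cytoskeleton, neuronal adhesion, brain aspartate metabolism, splicing, sperm, and cilia, and all 6 starts had an H3K4me3 peak in both other genotypes.

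Genes were next classed by whether an H3K4me3 peak lay within 1000 bp of any of their transcript starts. Of 13248 protein-coding genes marked in WT, 199 lost their start call (1.50%), and of 13339 marked in *Tet2*-/- cells, 290 were gained (2.17%). A further 13049 were marked in both and 8413 in neither. Which count was larger depended on the setting, with 381 genes lost and 286 gained when a peak had to contain a start, and 236 lost and 231 gained with the same number of peaks from each list. Genes with a lost or gained start were seldom acetylated there: 9.55% of the lost genes had an H3K27ac peak within 1000 bp of a start in WT and 4.52% in *Tet2*-/- cells, 6.21% and 5.17% of the gained genes, and 75.5% and 74.2% of the retained genes. Among long noncoding RNA genes, 91 of 2242 were lost (4.06%) and 147 of 2298 gained (6.40%).

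The labelled cell type was checked against marker genes. The stem and progenitor markers *Kit*, *Cd34*, *Gata2*, *Flt3*, and *Meis1* had a marked start in both genotypes, and so did all 3 monocyte (*Csf1r*, *Cd14*, *Ccr2*), the erythroid (*Klf1*, *Slc4a1*), and both megakaryocyte markers (*Pf4*, *Itga2b*). Of the 4 neutrophil markers only *Itgam* was marked, and *Ly6g*, *Ltf*, and *Camp*, genes of mature neutrophils, were marked in neither genotype. The T cell markers *Cd3e*, *Cd4*, and *Cd8a* were marked in neither. Of the B cell markers, *Pax5* was marked in both genotypes and *Cd79a* in neither. Cell numbers by lineage are not in the peak lists, and the part of cell composition in the gene lists below was not tested. The chromosome Y genes *Ddx3y*, *Eif2s3y*, *Kdm5d*, and *Uty* were marked in both genotypes, as was *Xist*. The start of *Tet2* itself stayed marked in both, as 2 retained regions.

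Lineage genes did not move evenly. Members and lists were chosen with earlier results of these data known, so the counts below describe the lists and test nothing. Of 20 B-lymphoid genes, 13 had a marked start in WT and 7 in *Tet2*-/- cells: 6 were lost, against 1.50% of all marked protein-coding genes, with 0 gained, 7 retained, and 7 marked in neither. When a peak had to contain the start itself, 2 were lost. The lost genes included *Il7r*, the interleukin 7 receptor that early B cell progenitors need, *Ebf1*, a transcription factor that commits cells to the B lineage, *Igll1*, part of the surrogate light chain of the pre-B cell receptor, *Rag2*, of the recombinase of antigen receptor genes, and *Blnk*, an adaptor of B cell receptor signaling. The WT peaks were of modest strength in their list. *Blnk* was the strongest (chr19:40993486-40994299; WT fold, 8.64; −log10 *q*, 23.1), above 34.8% of WT peaks. *Ebf1* followed at 7.83 (−log10 *q*, 14.4), with 3 WT peaks around its starts, and *Il7r* at 5.12, *Rag2* at 4.36, and *Igll1* at 3.53 lay in the weaker part of the list. Among all WT regions, at starts or not, the weakest of 4 parts by fold held 37.6% lost regions. At *Blnk* the H3K27ac peak was also in WT only, and at *Igll1* it was in both genotypes. *Ebf1*, *Rag2*, and *Il7r* had no H3K27ac peak at the start in either. All 5 named genes had an H3K4me1 peak near the start in both genotypes. Among the 7 retained genes were *Pax5*, a transcription factor that maintains B cell identity, where the covered length near the start was 1065 bp in WT and 312 bp in *Tet2*-/- cells, and *Dntt*, the terminal transferase of recombining lymphocytes, where it was 854 and 839 bp. Of the 7, 3 were covered over a greater and 4 over a shorter length in *Tet2*-/- cells, with a median ratio of 0.982.

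Of 20 erythroid genes, 19 were marked in WT and 14 in *Tet2*-/- cells, with 5 lost, 0 gained, and 1 marked in neither, beside 1.50% lost and 2.17% gained over all marked protein-coding genes. The lost genes were the adult globins *Hbb-bs* (WT fold, 12.1; −log10 *q*, 36.6) and *Hba-a2* (5.76; 12.5), *Alas2*, which starts heme synthesis in red cells (10.0; 27.2), *Car1* (15.1; 35.4), and *Rhag*, an ammonium channel of the red cell membrane (5.31; 6.17). The sister genes *Hbb-bt* and *Hba-a1* were marked in both genotypes, and since the copies within each globin cluster are near identical, the calls at single globin genes are uncertain. None of the 5 starts had an H3K27ac or H3K4me1 peak within 1000 bp in either genotype. All 14 retained erythroid genes were covered by H3K4me3 over a shorter length near their starts in *Tet2*-/- than in WT cells, with a median ratio of 0.803. Over all 13049 retained protein-coding genes, 55.3% were shorter in *Tet2*-/- cells and the median ratio was 0.989. Covered length was 3026 bp in WT and 1359 bp in *Tet2*-/- cells at *Slc4a1*, the anion exchanger of the red cell membrane, and 4618 and 3559 bp at *Gata1*, the regulator of erythroid genes. It differed little at *Car2*, with 4390 and 4334 bp, and *Fech*, with 1636 and 1624 bp.

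In the neutrophil list of 20 genes, 3 were lost and 0 gained (1.50% and 2.17% over all marked protein-coding genes), with 9 retained and 8 marked in neither, and 1 was lost when a peak had to contain the start. The lost ones were *S100a8*, a calcium-binding protein abundant in neutrophils (WT fold, 5.20), *Ngp*, a granule protein (4.88), and *Mmp9*, a secreted protease (4.12). The 9 retained genes included *Mpo*, *Elane*, *Prtn3*, and *Ctsg*, of early granules, and also *S100a9*, the partner of *S100a8*, *Cxcr2*, *Itgam*, and *Csf3r*. Among 20 monocyte and dendritic genes, *Cd68*, a lysosomal protein of macrophages, was lost, with a WT fold of 2.27 near the bottom of the list and no lost call within 3000 bp or at a −log10 *q* of at least 5, and 3 genes were gained, beside the same shares over all genes. These were *H2-Aa*, a chain of MHC class II (*Tet2*-/- fold, 7.49), *Cd74*, its invariant chain (4.24), and *Itgax*, an integrin of dendritic cells (5.43). At *H2-Aa* and *Cd74* the H3K27ac peak was also in *Tet2*-/- cells only, whereas at *Itgax* it was in WT only.

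**Figure D3:**
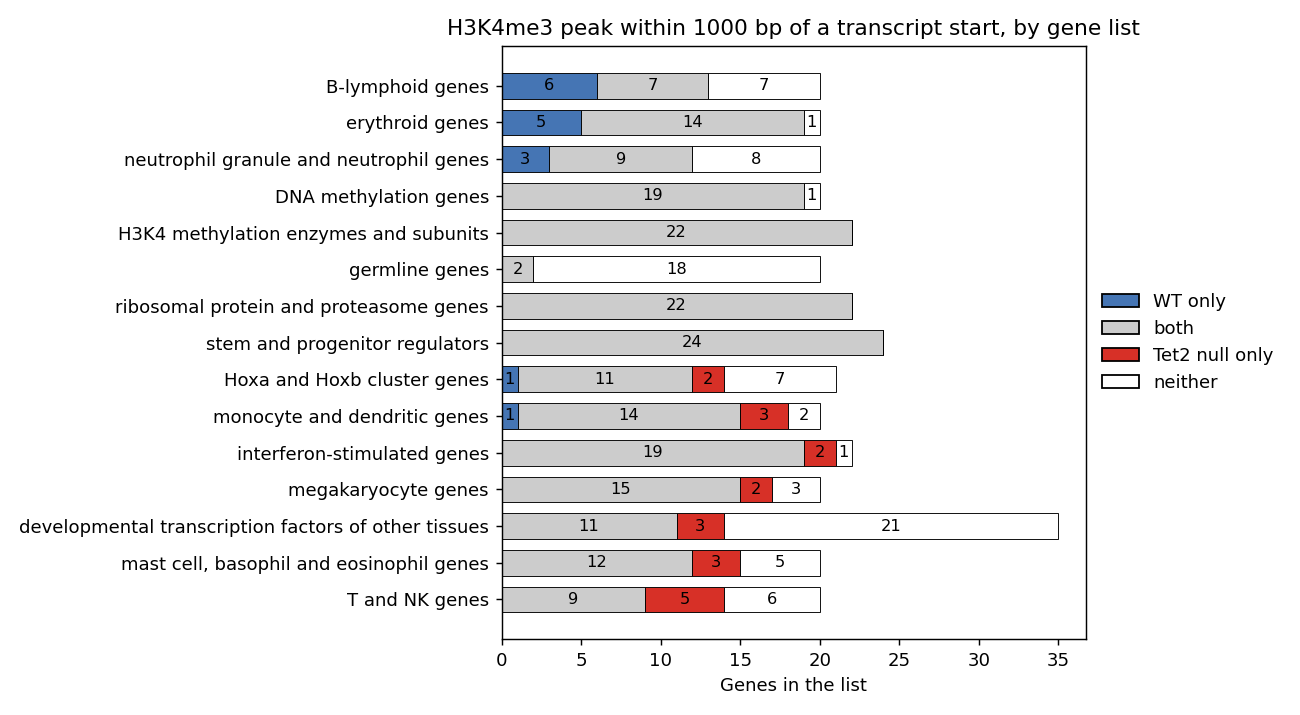
The bars plot the number of genes of each list with an H3K4me3 peak within 1000 bp of a transcript start in WT only (blue), both genotypes (gray), *Tet2*-/- only (red), or neither (white). B-lymphoid, erythroid, and neutrophil genes had 6, 5, and 3 genes marked in WT only and 0 in *Tet2*-/- only, while T and NK and mast cell, basophil, and eosinophil genes had 0 in WT only and 5 and 3 in *Tet2*-/- only.

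Gained starts fell on other lineages. Among 20 mast cell, basophil, and eosinophil genes, 3 were gained and 0 lost, with 12 retained and 5 marked in neither. Beside *Fcer1a*, these were *Cpa3*, a mast cell protease (chr3:20240991-20241278; *Tet2*-/- fold, 8.77; −log10 *q*, 14.9), and *Mcpt8*, a basophil protease (4.50; 5.56). Among the retained genes, the eosinophil granule gene *Prg2* was covered over 1176 bp in WT and 4022 bp in *Tet2*-/- cells, and 7 of the 12 were covered over a greater length in *Tet2*-/- cells, against 44.5% of all retained protein-coding genes. Of the 3 gained genes, *Mcpt8* had an H3K27ac peak near its start, in both genotypes, and *Cpa3* and *Fcer1a* had none. Among 20 T and NK cell genes, 5 were gained and 0 lost, with 9 retained, and 3 were gained when a peak had to contain the start or when both lists were held to the same number of peaks. Over all marked protein-coding genes, 2.17% were gained. Of the 9 retained T and NK genes, 3 were covered over a greater and 6 over a shorter length in *Tet2*-/- cells, with a median ratio of 0.875. *Bcl11b*, a regulator of T cell commitment, had a *Tet2*-/- fold of 6.46, *Klrb1c*, which encodes the NK receptor NK1.1, 6.38, and *Ncr1*, the NK receptor NKp46, 5.18. *Cd3g*, a chain of the T cell receptor complex, and *Prf1*, which encodes perforin, had folds of 2.86 and 2.55, among the weakest of the list. At *Klrb1c* and *Prf1* the H3K27ac peak was in WT only, the opposite of the H3K4me3 call.

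The megakaryocyte list of 20 genes had 2 gained and 0 lost genes, *Selp*, which encodes P-selectin (*Tet2*-/- fold, 8.10), and *Tubb1*, the platelet tubulin (4.30), and 12 of its 15 retained genes were covered over a greater length in *Tet2*-/- cells. Over all protein-coding genes, 2.17% of the marked ones were gained, 1.50% were lost, and 44.5% of the retained ones were covered over a greater length, which are the values to set beside this list and the next 3. The megakaryocyte count of gained genes was 1 when a peak had to contain the start and 1 when it could lie within 3000 bp. The covered length near the start of *Pf4*, the platelet factor 4 gene, was 656 bp in WT and 1201 bp in *Tet2*-/- cells. Of 22 interferon-stimulated genes, 2 were gained and 0 lost, *Ifi44* (11.2) and *Ifit3* (8.10), and 19 were retained, with 1 gained when a peak had to contain the start. In the list of 35 developmental transcription factors of other tissues, 3 were gained and 0 lost, among them *Pax3* and *Six2*, with *Tet2*-/- folds of 4.12 and 4.0. Of 21 *Hoxa* and *Hoxb* genes, *Hoxa10* and *Hoxb6* were gained and *Hoxb2* was lost. The *Hoxb2* loss was not called when a peak had to contain the start, when it could lie within 3000 bp, or when a −log10 *q* of at least 5 was required, and 1 gene of this list was gained within 3000 bp.

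Other lists held no change of call. Over all marked protein-coding genes 1.50% were lost and 2.17% gained, shares that leave few changed calls in lists of this size. All 24 stem and progenitor regulators, among them *Runx1*, *Gata2*, *Spi1*, and *Meis1*, stayed marked, and 12 were covered over a greater and 12 over a shorter length in *Tet2*-/- cells. Over all retained protein-coding genes, 44.5% were covered over a greater length. At *Kit*, the stem cell factor receptor, the length was 3586 bp in WT and 5069 bp in *Tet2*-/- cells, at *Cd34* 1790 and 2589 bp, and at *Gfi1b*, a repressor of erythroid and megakaryocyte cells, 4607 and 1585 bp. All 22 H3K4 methylation enzymes and subunits and all 22 ribosomal protein and proteasome genes were marked in both genotypes. Of 20 DNA methylation genes, 19 were marked in both, *Tet1* and *Tet3* included, and *Dnmt3l* in neither. Of 20 germline genes, which DNA methylation keeps silent outside the germline, 2 were marked in both genotypes and 18 in neither. *Tet2*, *Ep300*, *Myb*, *Notch1*, and *Dntt*, the genes singled out by the study, were marked in both genotypes.

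**Figure D4:**
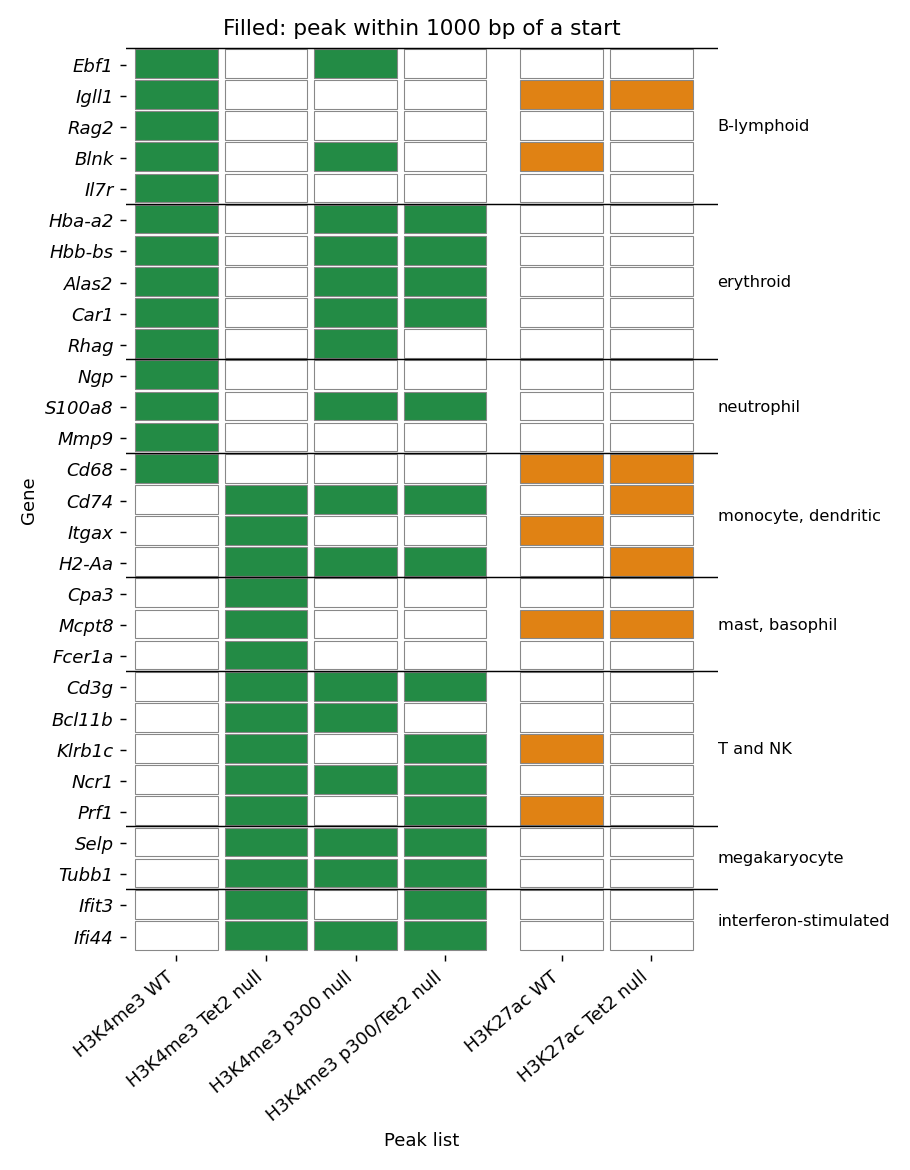
Each row is a named gene of a blood lineage or interferon list whose H3K4me3 start call differed between WT and *Tet2*-/- cells, and each column a peak list, with a filled cell where a peak lay within 1000 bp of a transcript start (green, H3K4me3; orange, H3K27ac). *Ebf1* and *Blnk* were marked in both genotypes with *Tet2* and in neither without it, whereas *Cpa3*, *Mcpt8*, and *Fcer1a* were marked in *Tet2*-/- cells only.

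The p300 Knockout and p300 Tet2 Knockout lists gave a second pair of genotypes that differ in *Tet2*, from libraries other than the first pair's. The second pair lacks p300 in both members, and the lists had 25012 and 27268 peaks. Of the lost regions, 561 had a peak in p300 Knockout only, 250 in p300 Tet2 Knockout only, 398 in both, and 1629 in neither. Of the gained regions, 310 had a peak in p300 Knockout only, 810 in p300 Tet2 Knockout only, 910 in both, and 1539 in neither. Counting regions with a peak in exactly 1 of these lists, 69.2% of the lost regions (65.9% to 72.3%) were in p300 Knockout only, against 40.2% of the retained regions (37.6% to 42.9%), and 72.3% of the gained regions (69.6% to 74.9%) were in p300 Tet2 Knockout only, against 59.8% of the retained regions (57.1% to 62.4%). The call moved the same way in the second pair more often for stronger regions. When each class was divided by fold into 4 parts, these shares fell from 80.4% in the strongest to 60.0% in the weakest part of the lost regions, and from 82.6% to 66.4% for the gained regions, by way of 74.3% and 63.6%. Gained regions beyond 3000 bp from a start moved the same way in 80.4% (76.7% to 83.7%) of 520 cases, and those that contain a start in 62.4% (53.0% to 71.2%) of 117. For lost regions the shares were 67.7% (62.3% to 72.8%) of 322 beyond 3000 bp and 77.6% (69.3% to 84.6%) of 125 with a start, with overlapping intervals. Retained regions were not divided by position here. Within the p300 Knockout list, 0 of the 4 chromosome Y genes had a marked start, against 4 in each of the other 3 lists, so that the second pair also differs in its sex-linked calls. Without chromosomes X and Y the shares were 69.4% for lost and 71.8% for gained regions.

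**Figure D5:**
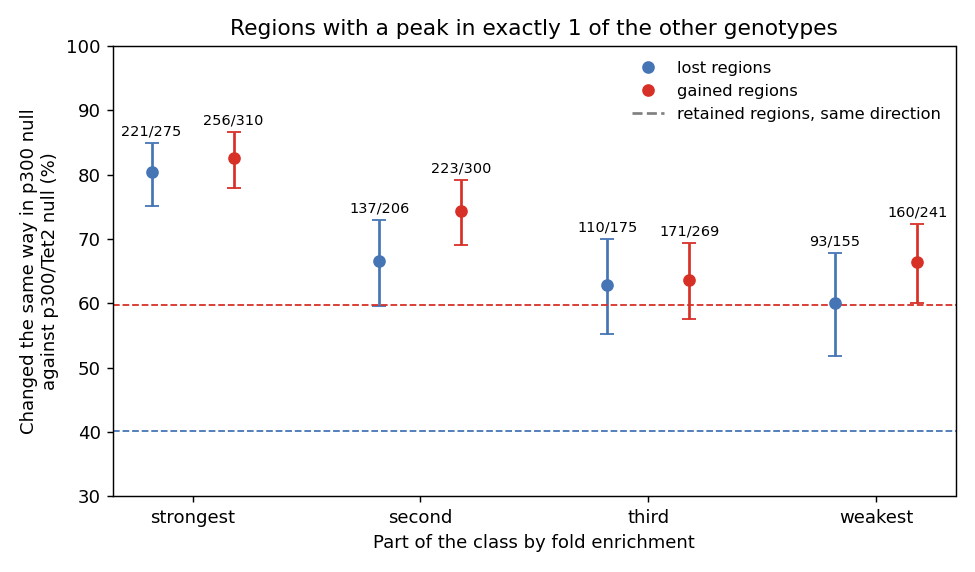
The points plot, for lost (blue) and gained (red) regions with a peak in exactly 1 of the p300 Knockout and p300 Tet2 Knockout lists, the percent in which the call differed in the same direction as between WT and *Tet2*-/-, in 4 parts of each class by fold enrichment, with exact 95% intervals and the counts above. Dashed lines give the retained regions, 40.2% in the direction of loss and 59.8% in that of gain, and the strongest parts stood at 80.4% and 82.6%.

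By gene, the second pair followed the lists in part. Of the 199 protein-coding genes with a lost start, 64 were marked in p300 Knockout only and 13 in p300 Tet2 Knockout only, and of the 290 with a gained start, 35 and 54. Both lists marked 60 of the lost and 155 of the gained genes, and neither list marked 62 and 46. Many gained starts thus also had a call in p300 Knockout cells, where *Tet2* is present. The retained genes gave 61 in p300 Knockout only and 66 in p300 Tet2 Knockout only. B-lymphoid genes had 8 marked starts in p300 Knockout and 5 in p300 Tet2 Knockout cells: *Ebf1* and *Blnk* were marked in p300 Knockout only, as was *Pax5*, and *Igll1*, *Rag2*, and *Il7r* in neither. Of the lost erythroid genes, *Rhag* was marked in p300 Knockout only, while *Hba-a2*, *Hbb-bs*, *Alas2*, and *Car1* were marked in both. The shorter coverage of erythroid genes recurred there: of the 18 marked in both lists, 15 were covered over a shorter and 3 over a greater length in p300 Tet2 Knockout cells, with a median ratio of 0.855, against 45.1% shorter and a median ratio of 1.01 over all 13197 protein-coding genes marked in both. The greater coverage of megakaryocyte genes did not recur: of the 17 marked in both lists, 8 were covered over a greater and 9 over a shorter length in p300 Tet2 Knockout cells, with a median ratio of 0.994. The mast cell and basophil genes *Cpa3*, *Mcpt8*, and *Fcer1a* were marked in neither list of the second pair. Neutrophil genes had 8 marked starts in p300 Knockout and 9 in p300 Tet2 Knockout cells, with *S100a8* marked in both and *Ngp* and *Mmp9* in neither. T and NK genes had 13 in each. Interferon-stimulated genes had 21 in each, megakaryocyte genes 18 and 19, developmental factors of other tissues 15 and 13, and *Hoxa* and *Hoxb* genes 16 and 14. These lists, T and NK first, had 9, 19, 15, 11, and 12 marked starts in WT and 14, 21, 17, 14, and 13 in *Tet2*-/- cells. *Klrb1c*, *Prf1*, and *Ifit3* were marked in p300 Tet2 Knockout only, and *Bcl11b* in p300 Knockout only.

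Lost and gained regions were spread over the genome. Lost regions made up from 6.11% of WT regions on chromosome X to 13.5% on chromosome 12 among chromosomes other than Y, and gained regions from 9.20% of *Tet2*-/- regions on chromosome X to 16.6% on chromosome 12. In 245 windows of 10 Mb with at least 30 regions, the lost share had a median of 11% and ranged from 0% to 27%, and the gained share had a median of 13.6% and ranged from 3.45% to 32.6%. Within 10 Mb of *Tet2*, on chromosome 3, 26 of 160 WT regions were lost (16.2%; 10.9% to 22.9%) and 22 of 156 *Tet2*-/- regions were gained (14.1%; 9.05% to 20.6%), which lay inside the range of the windows. Retained regions were of nearly equal length in both genotypes, with a median ratio of covered length in *Tet2*-/- over WT cells of 0.993 (quartiles, 0.911 and 1.07), and 329 regions were covered at least 2 times as long in WT and 236 at least 2 times as long in *Tet2*-/- cells. Retained regions were more often broken into several peaks in *Tet2*-/- cells, where 1394 held more peaks than in WT and 682 held fewer. Of 14950 genes with a start in a retained region, the start lay inside a WT peak only for 351 and inside a *Tet2*-/- peak only for 175.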

How the data were processed

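ChIP-Seq peak lists of H3K4me3 (4 genotypes) and of H3K27ac and H3K4me1 (WT and *Tet2*-/-) were used, 1 library each. Per the study's methods and the submitters' processing notes, the authors used cutadapt 1.15 for trimming, BWA 0.7.13 for alignment to mm10, and Picard for duplicates, and filtered alignments by mapping quality and a blacklist. Narrow peaks came from MACS2 2.1.1.20160309, with the H3 library as background. The deposited fold enrichment is a ratio to H3, and the deposited −log10 *q* values served for filters. Both were used only within 1 list. A *q* under 0.05 is stated, yet 36 WT and 90 *Tet2*-/- H3K4me3 peaks exceed it and were kept. Peak calls are yes or no, so a weak region can pass the threshold in 1 list and miss it in the other. The labels describe single-end and the methods paired-end reads.

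Lists were merged and classed with Python 3.11.15, numpy 2.4.6, and pandas 2.3.3, and intervals came from scipy 1.17.1. Starts were all transcript starts of GENCODE M21 on GRCm38, and sequence was read with pysam 0.24.0. Within retained regions and near starts, covered length is the summed width of the peaks. Code was tested on simulated data and against bedtools 2.31.1. Genes were named by rank of fold (the first 10 lost and 10 gained regions, over all regions and over protein-coding starts), by membership in 17 gene lists, and for 5 genes of the study. Members and lists were chosen with earlier results of these data known. The alternatives were the overlap, a 500 bp gap, a −log10 *q* of at least 5, lists of equal size, the upper part by fold, chromosomes, and the choice of starts. H3 and H3K27me3 samples were not analysed here. Some genes that the naming rule covers are not reported here.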

Additional observations from a re-analysis of the deposited data

Results flagged for a closer look

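Some regions changed one way between WT and *Tet2*-/- cells and the other way between p300 Knockout and p300 Tet2 Knockout cells. There were 250 regions lost in the first pair and present only in p300 Tet2 Knockout cells in the second, and 310 regions gained in the first pair and present only in p300 Knockout cells in the second. The difference between the pairs was not tested, since each genotype has 1 library.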

How the results depend on the processing

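Of 68 values recomputed under an alternative, 41 stayed within the interval of the share or within 1.5 times the count. When a peak of the other list within 500 bp counted as present, the share of regions within 3000 bp of a start was 46% of lost and 42.6% of gained regions, the share with H3K27ac in WT 29.2% of lost and in *Tet2*-/- cells 21.8% of gained regions, and the share moving the same way in the second pair 73.2% and 75.1%. When only regions above their list's median fold were used, 11 lost and 12 gained regions were left, with 45.5% and 58.3% within 3000 bp of a start, 54.5% and 41.7% with H3K27ac, and 100% of 5 and 100% of 2 moving the same way. Requiring a −log10 *q* of at least 5 gave 28.6% of lost regions with H3K27ac in WT. Starts within 1000 bp gave 32.2% and 30.9% of lost and gained regions, and protein-coding starts alone 49.1% and 42.9%. Peaks that contain a start gave 381 genes with a lost start in place of 199, and 286 with a gained start in place of 290. The same number of peaks from each list gave 3318 lost and 2660 gained regions. An alternative chosen after seeing the data, leaving out regions within 2000 bp of a retained one, gave 1592 lost and 2224 gained regions, with 38.1% and 36.4% within 3000 bp of a start, 30.2% and 22.5% with H3K27ac, and 72.7% of the lost ones moving the same way. The cause of these shifts was not tested. Of 136 counts of lost or gained genes in the lists, recomputed under alternatives chosen after seeing the data, 15 left the 1.5-fold range, among them lost B-lymphoid genes (2) and lost neutrophil genes (1) with peaks that contain a start, and gained T and NK genes (3) with that setting or lists of equal size. Erythroid losses and mast cell gains stayed in range. No paired analysis was possible because each genotype has 1 library. For the same reason leaving out a replicate could not be done. Depth is unknown, and weak regions, which most lost and gained regions are, lie nearest the threshold.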
